A study of Homo sapiens with 24 samples.

Results

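The comparison described here asks how the response to the DOT1L inhibitor EPZ004777 differed between 2 human leukemia lines after 6 days. The compared values are those of 12 of the 24 arrays of the series, 3 in each of 4 groups, while the spread behind SEs and tests was estimated over all 24. The groups are MOLM-13 and MV4-11 cells, each grown with 3 µM EPZ004777 or with its vehicle, 0.1% DMSO. MOLM-13 was established from an acute myeloid leukemia with an MLL-AF9 rearrangement and was kept in RPMI with 10% FBS. MV4-11 is labelled a biphenotypic B myelomonocytic leukemia line with an MLL-AF4 rearrangement, and was kept in IMDM with 10% FBS. Line, fusion partner and medium change together, so their contributions cannot be told apart. For each gene the inhibitor effect is the mean log2 intensity of the 3 treated arrays minus that of the 3 vehicle arrays of the same line. The difference is the effect in MOLM-13 minus the effect in MV4-11. Genes were kept when their mean log2 intensity reached 6 in at least 1 group of each line, which held for 9086 of the 10971 genes tested (82.8%).

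The level rule leaves out genes that 1 line hardly expresses. Of the 1885 genes left out, 552 were below the level in MOLM-13 alone, 341 in MV4-11 alone and 992 in both. Just inside it lay PIGZ, IQCC and ZNF143-AS1, whose deciding group means were 6.001, 6.003 and 6.004. Just outside lay CCDC126 (5.997), NRG1 (5.998) and FERMT1 (5.999). All 4 group means reached 6 for 8627 of the kept genes, and the other 459 were kept through only 1 group of a line. A gene that passes through its high group alone had to change, and 287 of those 459 had a called difference. Among genes named below, S100A9, BCL6, EGR1, KLF2, CD38, HLA-DQB1 and VLDLR were kept this way, besides those marked where they are described.

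DOT1L is the enzyme that methylates lysine 79 of histone H3 in the bodies of transcribed genes. Fusions of MLL (KMT2A) with AF4 or AF9 bring DOT1L to a set of developmental genes, among them MEIS1 and MEF2C, and hold those genes at a high level in leukemic blasts. Both lines also carry an internal tandem duplication of FLT3, a receptor tyrosine kinase that signals through STAT5, ERK and AKT. Inhibition of DOT1L removes the mark slowly, as histones are replaced over successive cell divisions. Effects on expression therefore build up over days.

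Most myeloid markers were present in all 4 groups. Of 7 myeloid markers on the arrays, 6 reached a log2 intensity of 6 in a group, and LYZ, the lysozyme gene, stood at 14.15 in vehicle MOLM-13 and 14.16 in vehicle MV4-11. ANPEP reached that level only in treated MOLM-13 (8.98), against 2.40 with vehicle, and 2.19 and 4.33 in vehicle and treated MV4-11. CD14 stood at 4.42 in treated MOLM-13 and at 2.19 in the other groups. Of the B-lymphoid genes, CD79A, MS4A1 and PAX5 were below 6 in every group, with PAX5 highest at 4.41 in vehicle MV4-11. IGLL1 and CD24, which are also on the B-lymphoid list, were above it, at 8.87 and 7.21 in vehicle MV4-11. The erythroid genes HBB and ALAS2 were near the lowest value, while EPOR and TFRC, the erythropoietin and transferrin receptors, were at 7.84 and 14.25 in vehicle MV4-11. Of the T and NK markers, NKG7 was present throughout, and CD3D was at 5.38 in vehicle and 8.12 in treated MOLM-13 but at 2.19 and 2.34 in MV4-11. CD3E, CD2 and GNLY were at or near the lowest value. Of the fibroblast genes, COL1A1 was at 7.03 to 7.41 over the groups and COL1A2 was near the lowest value.

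RNA quality measures moved with treatment, most in MOLM-13. The log2 difference between 3' and 5' controls for ACTB and GAPDH, which grows as RNA degrades, was 2.10 to 2.84 on the treated and 0.954 to 1.15 on the vehicle MOLM-13 arrays. In MV4-11 it was 0.567 to 0.583 on the vehicle arrays and 0.826, 0.861 and 1.91 on treated replicates 1, 2 and 3. Its part in the results was tested only as a covariate. In both lines the treated and vehicle values do not overlap, so the covariate cannot separate RNA quality from treatment. Counts with the covariate are given as values only. Treated MV4-11 replicate 3 also correlated least with its group (mean r 0.9797, against 0.988 and 0.9887). The median log2 intensity of all tested genes was 8.17 to 8.19 in treated MOLM-13 and 8.28 to 8.35 on the other day 6 arrays. The counts of differences, of gene lists and of shared directions were therefore repeated with the 3' to 5' difference as a covariate, without treated MV4-11 replicate 3, and with every array set to a common median.

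**Figure D1:**
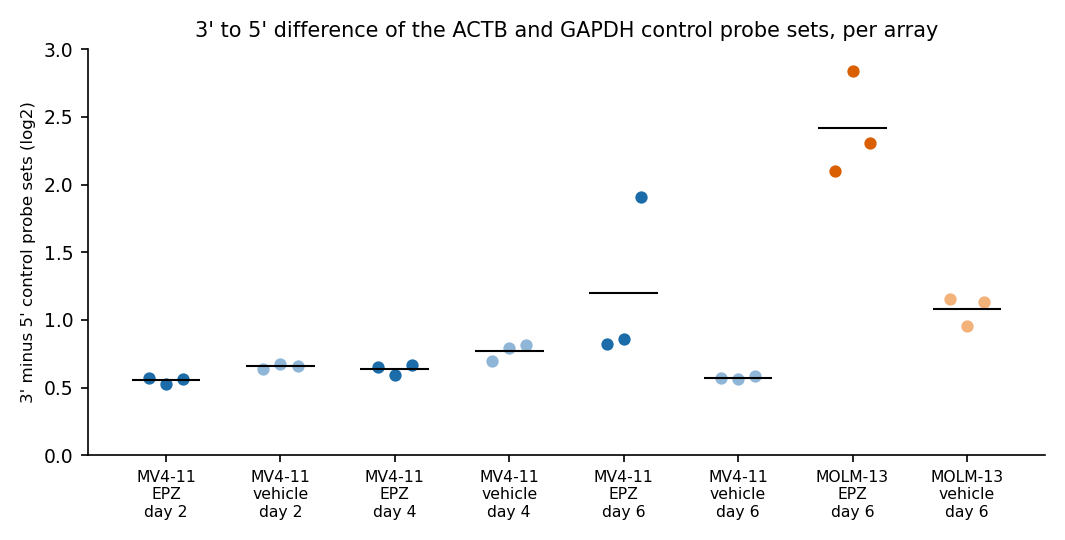
Log2 difference between 3' and 5' controls for ACTB and GAPDH on each of the 24 arrays (points), with group means (bars). The 3 treated MOLM-13 arrays lie between 2.10 and 2.84, and treated MV4-11 day 6 replicate 3 at 1.91 lies apart from its 2 group members.

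The effect differed between the lines for 53% of the kept genes, 4812 of 9086, at an adjusted p under 0.05 (limma, two-sided, Benjamini-Hochberg over 10971 genes). It was higher in MOLM-13 for 1770 genes (19.5%) and lower for 3042 (33.5%). Over all 10971 genes tested the shares were 52% in all, 19.4% higher and 32.7% lower. With the spread estimated from the day 6 arrays alone the count was 3949. Sizes were mostly small. The median size of the difference over kept genes was 0.34 on the log2 scale, with a median SE of 0.13, and 918 genes (10.1%) had a called difference of at least 2-fold, 272 higher (2.99%) and 646 lower (7.11%). The median difference over all kept genes was −0.10. With a common median it was 0.06, a shift of 0.16, and the split turned to 2699 higher (29.7%) and 2134 lower (23.5%). The balance of higher and lower calls thus depends on how arrays are scaled, and the medians of gene lists below are to be read against −0.10. The labels give biological replicates without saying how they were made, so p-values measure the spread between these samples. In these bulk RNA samples, fewer cells of a type and less RNA per cell cannot be told apart.

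Most genes that responded in both lines went the same way. The inhibitor effect was called for 6372 kept genes in MOLM-13 (70.1%, with 29.2% higher and 40.9% lower) and for 5960 in MV4-11 (65.6%, with 33.5% higher and 32.1% lower). Of 4382 genes called in both lines, 3620 (82.6%) moved in the same direction and 762 in opposite directions. With the 3' to 5' covariate fewer genes were called in both lines, 2537, of which 83.2% moved in the same direction. That share was 82.0% with a common median and 79.1% without treated MV4-11 replicate 3. Among genes with a called difference, 921 fell and 506 rose in MOLM-13 with no call in MV4-11. A further 473 fell and 621 rose in MV4-11 with no call in MOLM-13. Both lines fell but MOLM-13 fell further for 592 genes, and MV4-11 fell further for 262. Both rose but MOLM-13 rose further for 264, and MV4-11 for 353. The 2 lines stood closer together with inhibitor than with vehicle in 26.6% of the genes with a called difference, against 33.7% of all kept genes.

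**Figure D2:**
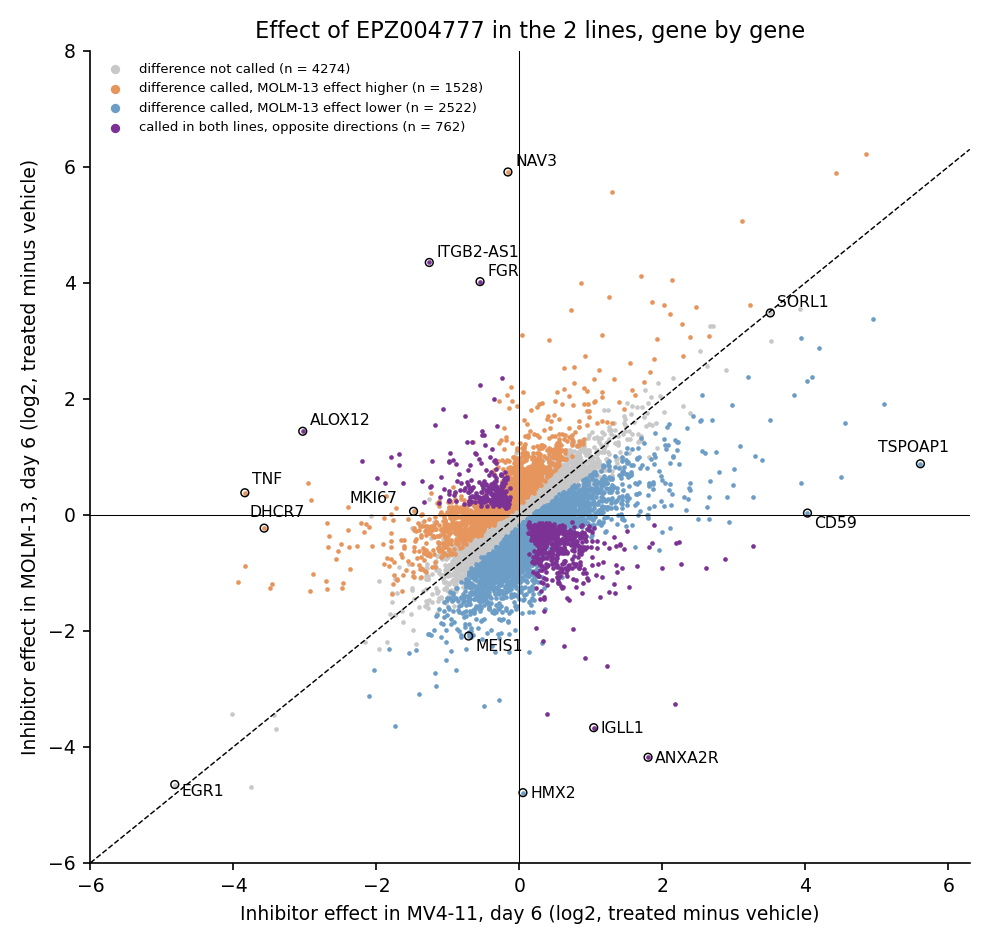
Each point is 1 of the 9086 kept genes, with its inhibitor effect in MV4-11 on the x axis and in MOLM-13 on the y axis (log2, treated minus vehicle, day 6, 3 arrays per group). The dashed line marks equal effects, grey points have no called difference, and the 762 purple genes were called in both lines in opposite directions.

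The cell division programme fell in MV4-11 and much less in MOLM-13. The list of mitosis genes holds 30 spindle, kinetochore, cyclin and checkpoint genes, all of them kept. All 30 fell in MV4-11 (32.1% of kept genes did), with a median effect of −0.98. In MOLM-13 17 fell (40.9% of kept genes did), 2 rose and the median effect was −0.21. With the 3' to 5' covariate 9 fell in MOLM-13 and 4 rose (25.1% and 16.9% of kept genes), with a median of −0.17. The difference was called higher in MOLM-13 for 24 of 30 (19.5% of kept genes) and lower for 0, with a median of 0.79. It was higher for 27 with a common median, for 26 with the 3' to 5' covariate, and for 24 with 1 lower without treated MV4-11 replicate 3.

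MKI67, the proliferation antigen that coats mitotic chromosomes, showed the widest gap of the list. In MOLM-13 it read 10.62, 10.73 and 10.66 on the vehicle arrays and 10.82, 10.67 and 10.71 on the treated arrays, which overlap (73.4% of kept genes did not overlap in MOLM-13, and 68.1% did not in MV4-11). In MV4-11 the vehicle arrays read 11.26, 11.43 and 11.36 and the treated arrays 9.99, 9.91 and 9.71, well apart. The difference was 1.54 ± 0.10 (log2, SE), a factor of 2.91, with a limma adjusted p of 3.8e-10. BUB1B, a kinase of the spindle checkpoint, likewise overlapped in MOLM-13 (12.22, 12.29 and 12.28 with vehicle, 12.24, 12.17 and 12.28 with inhibitor). Its MV4-11 arrays went from 12.19, 12.18 and 12.29 to 11.16, 11.00 and 10.96, a difference between the lines of 1.14. NUSAP1, a spindle microtubule protein, rose by 0.23 in MOLM-13 and fell by 0.53 in MV4-11. UBE2C, which passes ubiquitin to mitotic cyclins, had an effect of −0.02 in MOLM-13 and fell by 0.97 in MV4-11. Not every member parted the lines: CDK1 fell by 0.81 in MOLM-13 and by 0.80 in MV4-11, and CENPA fell by 1.61 and 1.28, with no call on the difference for either (both chosen here after their values were seen).

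Many promoters of the mitosis genes hold a short element, shown here because the genes moved together in MV4-11. The cell cycle homology region, through which the DREAM and MuvB-FOXM1 complexes time late cell cycle genes, was searched as TTTGAA or TTCGAA on both strands of 300 bases around each RefSeq start site, after the values had been seen. It occurred in 19 of 25 mitosis promoters in the table (76%), in 11.6% of 7603 kept genes with a promoter and in 16.6% of all 27305 promoters. Among the DNA replication genes it occurred in 2 of 29 (6.9%). It was 1 of 4 elements searched in 6 lists. The others, on both strands too, were an interferon response element (GAAA, any 2 bases, GAAA), found in 4 of 9 promoters of interferon-stimulated genes (2.79% of kept genes), TCACNCCAC, in 1 of 17 of sterol genes (1.04%), and TGACGNNA, in 1 of 20 of ATF4 genes (13%) and 5 of 25 of mitosis genes. A match describes letters in a window and shows no bound factor. The 250 bases before the start of 3 genes are given 5′ to 3′ on the gene's strand (RefSeq, GRCh38.p14), with the element on either strand in capitals. They are MKI67 (chr10:128126424-128126673, minus strand), BUB1B (chr15:40160819-40161068, plus strand) and CDC20 (chr1:43358731-43358980, plus strand), an activator of the anaphase-promoting complex whose difference was 0.82.
MKI67: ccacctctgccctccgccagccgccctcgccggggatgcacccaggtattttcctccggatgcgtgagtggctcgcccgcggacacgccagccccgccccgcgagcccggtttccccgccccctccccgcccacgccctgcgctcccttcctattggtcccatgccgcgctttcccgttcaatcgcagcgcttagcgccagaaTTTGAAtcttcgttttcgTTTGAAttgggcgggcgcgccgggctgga
BUB1B: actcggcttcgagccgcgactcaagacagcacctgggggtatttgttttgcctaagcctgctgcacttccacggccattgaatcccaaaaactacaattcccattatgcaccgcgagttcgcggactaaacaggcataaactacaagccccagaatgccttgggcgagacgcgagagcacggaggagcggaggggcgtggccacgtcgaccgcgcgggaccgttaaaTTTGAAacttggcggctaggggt
CDC20: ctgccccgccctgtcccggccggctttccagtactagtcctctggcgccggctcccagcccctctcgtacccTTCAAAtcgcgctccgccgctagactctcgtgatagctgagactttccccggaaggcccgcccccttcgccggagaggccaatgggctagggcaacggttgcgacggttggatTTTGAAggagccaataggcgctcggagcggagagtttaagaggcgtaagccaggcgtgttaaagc
The element nearest the start lies 29 bases before it in MKI67, 23 in BUB1B and 65 in CDC20, counted to the start site.

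DNA replication genes, which act a phase earlier, parted the lines less. Of 34 kept members, 33 fell in MV4-11 (32.1% of kept genes did), with a median of −0.80. In MOLM-13 22 fell (40.9% of kept genes did), with a median of −0.62. The difference was higher in MOLM-13 for 15 (19.5% of kept genes), lower for 2 (33.5%), and 17 had no call, with a median of 0.35. With a common median the split was 25 and 0, and with the covariate 22 and 0. FEN1, the flap endonuclease of lagging-strand synthesis, and LIG1, the ligase that seals the nicks, had effects of 0.14 and 0.04 in MOLM-13 and fell by 0.74 and 0.80 in MV4-11. RRM2, a subunit of ribonucleotide reductase, had an effect of −0.10 in MOLM-13 and fell by 0.73 in MV4-11. GINS1, part of the replicative helicase, fell in both lines, by 0.31 and 0.88.

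Most p53 target genes fell in MV4-11, 12 of 17 kept (32.1% of kept genes did), while 5 fell in MOLM-13 (40.9% of kept genes did). CDKN1A, the p21 inhibitor of cyclin-dependent kinases, read 10.96, 10.74 and 10.59 with vehicle and 8.50, 8.50 and 8.77 with inhibitor in MV4-11. In MOLM-13 it read 10.55, 10.63 and 10.62 and then 10.32, 10.21 and 10.38. Treated arrays lay below vehicle arrays in both lines, but by 2.17 in MV4-11 against 0.30, a difference of 1.87 ± 0.14 (limma adjusted p 1.68e-09). Over the list 10 had a higher and 3 a lower effect in MOLM-13 (19.5% and 33.5% of kept genes), with a median difference of 0.36. TNFRSF10B, a death receptor for TRAIL, rose by 0.43 in MOLM-13 and fell by 0.83 in MV4-11. DDB2, a DNA damage sensor, had an effect of 0.07 in MOLM-13 and fell by 0.95 in MV4-11. Against that direction, TP53INP1, a stress-induced p53 cofactor, rose by 1.42 in MV4-11 and by 0.20 in MOLM-13. Of 10 G1 cyclins and CDK inhibitors 3 were higher and 6 lower, and with a common median 4 and 3. CCND3, a D-type cyclin, and CDKN2D, the p19 inhibitor of CDK4 and CDK6, fell by 0.90 and 1.36 in MV4-11, against −0.24 (called) and −0.19 (not called) in MOLM-13.

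**Figure D3:**
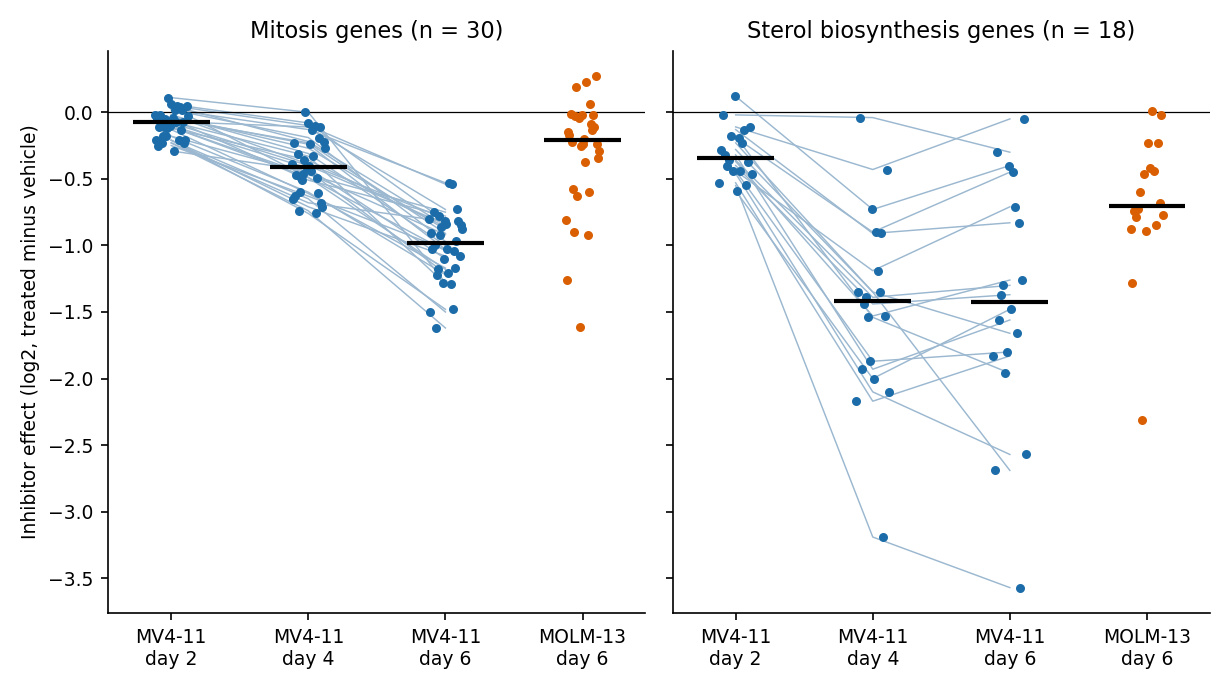
Inhibitor effect (log2, treated minus vehicle) of each kept mitosis gene and sterol biosynthesis gene (points) in MV4-11 on days 2, 4 and 6 and in MOLM-13 on day 6, with medians (black bars). The mitosis median in MV4-11 is −0.07, −0.41 and −0.98 over the days and the sterol median −0.34, −1.42 and −1.43, against −0.21 and −0.71 in MOLM-13.

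Fusion target genes fell further in MOLM-13. Of 29 listed targets of MLL fusions 16 were kept. The difference was lower in MOLM-13 for 9 of them (33.5% of kept genes) and higher for 2 (19.5%), with a median of −0.47. With a common median 7 were lower and 3 higher, and with the covariate 11 and 2. The list's median effect was −0.35 in MOLM-13, where 9 fell (40.9% of kept genes) and 0 rose, and −0.09 in MV4-11, where 6 fell (32.1%) and 3 rose.

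MEIS1, a homeobox cofactor of HOXA9 and the best-known fusion target, read 10.42, 10.57 and 10.59 with vehicle and 8.54, 8.58 and 8.18 with inhibitor in MOLM-13. In MV4-11 it read 11.03, 10.98 and 11.10 and then 10.25, 10.41 and 10.30. The groups parted in both lines, by 2.09 in MOLM-13 and 0.71 in MV4-11, so the falls differed by a factor of 2.6 (difference −1.38 ± 0.12, limma adjusted p 1.34e-08). In MV4-11 the MEIS1 effect was −0.04 on day 2 and −0.15 on day 4, neither called. FLT3 fell by 2.05 in MOLM-13 (11.91, 12.25 and 12.01 to 10.03, 9.86 and 10.14) and by 1.27 in MV4-11 (12.46, 12.40 and 12.32 to 11.28, 11.20 and 10.91). MEF2C, a transcription factor of myeloid progenitors, fell by 2.32 and 1.82. Its difference of −0.50 was called on its brightest probe set but not on the mean of its probe sets (−0.20).

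JMJD1C, a demethylase-family protein that acts in leukemic self-renewal, fell by 1.36 in MOLM-13 and had an effect of −0.07 in MV4-11. CDK6, the G1 kinase, fell by 1.32 and 0.36, a difference of −0.96 that was −0.17 and not called over the mean of its 6 probe sets. PBX3, a partner of MEIS1, went the other way. It overlapped in MOLM-13 (11.35, 11.55 and 11.52 with vehicle, 11.46, 11.32 and 11.35 with inhibitor) and fell in MV4-11 from 10.85, 10.91 and 10.93 to 9.80, 9.90 and 9.88, a difference of 0.94 ± 0.10 (limma adjusted p 2.09e-07). LMO2, an adaptor of stem cell transcription complexes, fell by 0.54 in MV4-11 with an effect of 0.13 in MOLM-13. MYC, the growth regulator downstream of many of these genes, fell by 1.00 in MOLM-13 and 0.49 in MV4-11. Its difference of −0.51 shrank to −0.14 with the 3' to 5' covariate and was then not called, nor was it with a common median (−0.36), with the day 6 arrays alone or after quantile normalization. DOT1L itself differed by 0.27 ± 0.19, which was not called (0.49 and called without treated MV4-11 replicate 3).

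Genes of the machinery around DOT1L and the fusions went both ways. Of 22 kept genes of the DOT1L and elongation complexes 5 were higher and 6 lower (50% called, against 53% of kept genes), with differences from −0.76 to 1.14, a median of −0.02, and 7 and 3 with a common median. KMT2A, the MLL gene, rose by 0.55 in MOLM-13 and fell by 0.24 in MV4-11. LEO1 and CTR9, subunits of the PAF1 elongation complex, fell by 1.23 and 0.65 in MOLM-13, against −0.47 (called) and 0.01 (not called) in MV4-11. RTF1, a further PAF1-associated factor, differed by −0.60 on its brightest probe set and by −0.15, not called, over the mean of its probe sets.

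STAT5 feedback genes of the SOCS family fell in MOLM-13. SOCS2, a suppressor of cytokine signalling that STAT5 induces, read 12.94, 12.84 and 12.86 with vehicle and 9.62, 9.73 and 9.70 with inhibitor in MOLM-13, and 10.83, 10.87 and 10.79 then 10.49, 10.59 and 10.52 in MV4-11. Both lines fell, by 3.20 and 0.29, and the difference was −2.90 ± 0.07, a factor of 7.48 (limma adjusted p 2.66e-17). With vehicle SOCS2 was higher in MOLM-13 than in MV4-11, and with inhibitor it was lower. CISH and SOCS1, feedback inhibitors of the same family, fell by 0.90 and 1.68 in MOLM-13, and had effects of −0.17 and −0.32 in MV4-11, neither called. Of 10 kept STAT5 targets 6 were lower (33.5% of kept genes) and 2 higher (median −0.39), and with a common median 4 were lower (23.5% of kept genes) and 2 higher. BCL6, a repressor that STAT5 holds down, rose in both lines, by 2.38 in MOLM-13 and 4.10 in MV4-11, where its vehicle level was near the lowest values of the arrays.

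**Figure D4:**
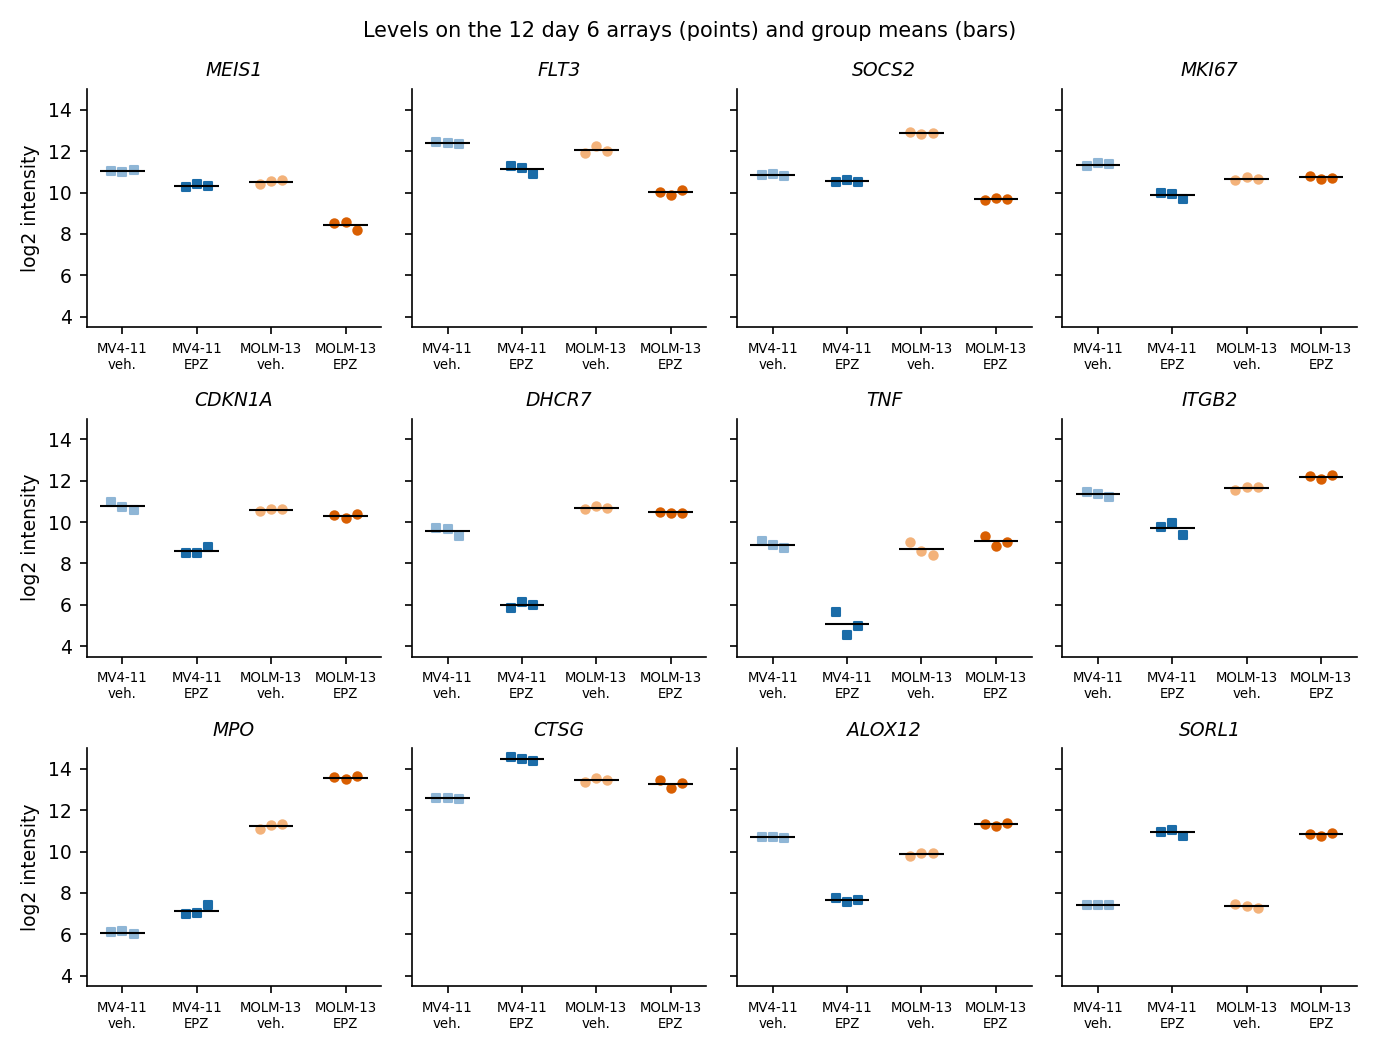
Log2 intensity of 12 genes on each of the 12 day 6 arrays (points) with group means (bars), for MV4-11 (squares) and MOLM-13 (circles) with vehicle (veh.) or EPZ004777 (EPZ). MEIS1, FLT3 and SOCS2 fall further in MOLM-13, MKI67, CDKN1A, DHCR7, TNF and ITGB2 fall in MV4-11, ALOX12 moves in opposite directions, and SORL1 rises alike.

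Sterol synthesis fell in both lines and further in MV4-11. All 18 tested sterol genes were kept. In MV4-11 16 fell (32.1% of kept genes did), with a median of −1.43, and in MOLM-13 14 fell (40.9%), with a median of −0.71. The difference was higher in MOLM-13 for 12 (19.5%) and lower for 1, with a median of 0.71. The counts were 12 and 1 as well with a common median and with the covariate.

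DHCR7, the enzyme of the last step to cholesterol, stood out. In MV4-11 it read 9.72, 9.68 and 9.32 with vehicle and 5.87, 6.15 and 5.99 with inhibitor, while MOLM-13 read 10.63, 10.75 and 10.70 and then 10.49, 10.45 and 10.44. Treated arrays were below vehicle arrays in both lines, but the MOLM-13 effect of −0.23 was not called. The difference was 3.34 ± 0.20, a factor of 10.1 (limma adjusted p 6.83e-11). The MV4-11 fall was 0.55 on day 2 and 3.19 on day 4. EBP and LSS, the sterol isomerase and lanosterol synthase, fell by 1.66 and 1.80 in MV4-11 and by 0.44 and 0.46 in MOLM-13. FDPS, which makes farnesyl diphosphate, fell by 1.30 and 0.60.

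Fatty acid genes showed the same order. Of 9 kept, 5 were higher (19.5% of kept genes) and 1 lower (33.5%), with a median difference of 0.94. ACACA, the acetyl-CoA carboxylase that commits carbon to fatty acids, fell by 1.40 in MV4-11 and 0.26 in MOLM-13. FADS2, a desaturase of polyunsaturated fatty acids, fell by 2.38 and 0.56, and SCD, which makes oleate, by 1.79 and 0.77. SREBF1, the transcription factor that drives this pathway, fell by 1.77 in MV4-11 with an effect of −0.09 in MOLM-13. ABCA1, which exports cholesterol, moved in MOLM-13 instead: it read 5.41, 4.85 and 5.18 with vehicle and 8.21, 8.59 and 7.93 with inhibitor, against 7.87, 7.83 and 7.79 then 7.55, 7.63 and 8.39 in MV4-11, which overlap. The ABCA1 difference was 3.07 ± 0.27. Over the 10 kept genes of the LXR and lipid handling list 4 were higher and 2 lower (median 0.17). That is 60% called, near the 53% of all kept genes. DGAT2, a triglyceride synthase, rose by 1.10 in MV4-11 and fell by 0.85 in MOLM-13, and MYLIP, which degrades the LDL receptor, rose by 0.59 in MOLM-13 and fell by 0.33 in MV4-11.

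Myeloid maturation genes rose in both lines but not the same ones to the same extent. Of 14 kept monocyte and macrophage genes 11 rose in MOLM-13 (median 1.21) and 13 in MV4-11 (median 1.14), against 29.2% and 33.5% of kept genes. The difference was higher for 5 (19.5% of kept genes) and lower for 6 (33.5%), with a median of 0.13. AIF1, an actin-binding protein of macrophages, rose by 1.47 in MOLM-13 and 0.34 in MV4-11. FCGR2A, an activating IgG receptor, rose by 1.25 in MV4-11 and fell by 0.58 in MOLM-13. CTSS, a lysosomal protease of antigen-presenting cells, and TYROBP, the DAP12 signalling adaptor, rose by 1.28 and 1.15 in MV4-11, against 0.11 (not called) and 0.38 (called) in MOLM-13. CSF1R, the M-CSF receptor, rose in both lines, by 1.41 in MOLM-13 and 1.90 in MV4-11. ITGAM, the CD11b chain, rose by 1.21 and 1.14, and its difference of 0.07 ± 0.41 is too wide to rank the lines.

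Primary granule genes split by line. These are the proteases and peroxidase that promyelocytes store. All 11 kept genes had a called difference (53% of kept genes did), 8 lower (33.5%) and 3 higher (19.5%) in MOLM-13, with a median of −0.64. The split was 7 and 3 with a common median, and 7 and 2 with the day 6 arrays alone. MS4A3 was higher by 0.63 on its brightest probe set. Over the mean of its probe sets its difference was 0.10 and not called. Of the 11 genes 7 rose and 2 fell in MV4-11 (33.5% and 32.1% of kept genes), while 3 rose and 5 fell in MOLM-13 (29.2% and 40.9%). With the 3' to 5' covariate 3 rose and 2 fell in MOLM-13, with 3 differences higher and 7 lower. CTSG, cathepsin G, went from 12.60, 12.60 and 12.56 to 14.55, 14.48 and 14.39 in MV4-11. In MOLM-13 its arrays overlapped (13.34, 13.53 and 13.47 with vehicle, 13.44, 13.09 and 13.29 with inhibitor), and the difference was −2.06 ± 0.11 (limma adjusted p 8.28e-12). ELANE, neutrophil elastase, rose by 1.11 in MV4-11 with an effect of 0.06 in MOLM-13, where it stood at 15.02 to 15.13 on all 6 arrays, near the top of the range. MPO, myeloperoxidase, rose further in MOLM-13: from 11.09, 11.28 and 11.34 to 13.58, 13.51 and 13.63, against 6.12, 6.14 and 6.00 to 6.97, 7.01 and 7.41 in MV4-11. Its difference was 1.29 ± 0.28.

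Of 5 kept neutrophil maturation genes all 5 rose in MOLM-13 and 4 in MV4-11 (29.2% and 33.5% of kept genes did). The effect was higher in MOLM-13 for 2 (19.5% of kept genes). S100A9, a subunit of calprotectin, rose by 4.04 and 2.14. CEBPD, a transcription factor of myeloid differentiation, rose by 1.35 in MOLM-13 with an effect of 0.08 in MV4-11. CXCR2, a neutrophil chemokine receptor, rose by 1.08 and 0.91, and its difference of 0.16 was not called. Other myeloid transcription factors went in either direction. CEBPA, the master factor of granulocyte commitment, rose by 0.58 in MV4-11 with an effect of −0.08 in MOLM-13. IRF8, which directs monocyte fate, fell by 0.44 in MOLM-13 with an effect of 0.13 in MV4-11. KLF2, a quiescence factor, fell by 2.50 in MV4-11 with an effect of −0.50, not called, in MOLM-13.

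Most kept receptors of the lectin, LILR and Fc families rose further in MOLM-13. Of 10 kept, 9 rose in MOLM-13 (median 1.81) and 6 in MV4-11 (median 0.61), against 29.2% and 33.5% of kept genes. The difference was higher for 7 (19.5% of kept genes) and lower for 2 (33.5%), with a median of 0.89. The counts of 7 and 2 also held with a common median and without treated MV4-11 replicate 3. FCGR2A, the IgG receptor named above, went the other way, with a difference of −1.82. LILRA1, an activating leukocyte receptor, read 6.55, 6.44 and 6.28 with vehicle and 8.11, 8.04 and 8.0 with inhibitor in MOLM-13. In MV4-11 it read 8.58, 8.65 and 8.52 and then 8.63, 8.62 and 8.71, so the lines came closer and the difference was 1.56 ± 0.09. LILRA2 rose by 1.91 and 0.60, and LILRB2, an inhibitory receptor, by 2.53 and 0.62. LILRB2 passed the level rule in MOLM-13 through the treated group alone and so had to change there. Its difference of 1.91 was 1.03 with a pseudocount of 32. SIGLEC7, a sialic acid-binding inhibitory lectin, rose by 1.70 in MOLM-13 and fell by 0.76 in MV4-11.

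Antigen presentation genes moved in both directions. Only 2 of 10 tested MHC class II genes were kept, since the others stayed below the level in at least 1 line. CD74, the invariant chain, rose by 2.20 in MV4-11 (11.48, 11.45 and 11.67 to 13.83, 13.85 and 13.51) and by 1.11 in MOLM-13 (9.91, 10.07 and 10.10 to 11.27, 11.11 and 11.05). HLA-DQB1 rose by 4.19 in MV4-11 and 2.87 in MOLM-13, from a vehicle level there of 3.47 to 3.71. CIITA, the master regulator of class II, was not kept, with MOLM-13 means of 3.91 and 4.83 against 5.28 and 8.85 in MV4-11. NLRC5, its class I counterpart, rose further in MOLM-13, by 1.96 against 0.50. PSMB9, an immunoproteasome subunit, and TAP2, a peptide transporter, rose by 0.73 and 0.60 in MOLM-13, with effects of −0.12 and −0.02 in MV4-11. B2M went the other way, with a fall of 0.66 in MOLM-13 and an effect of 0.13, not called, in MV4-11. ERAP2 had a difference of −0.73. Over the 14 kept class I genes 3 were higher and 2 lower (35.7% called, against 53% of kept genes), with a median difference of −0.03.

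Inflammatory and immediate early genes were among the widest gaps. Of 11 tested cytokine and chemokine genes 7 were kept. The effect in MOLM-13 was higher for 4 (19.5% of kept genes) and lower for 1 (33.5%), with a median difference of 2.00. TNF, the prototype inflammatory cytokine, read 9.07, 8.90 and 8.74 with vehicle and 5.66, 4.55 and 4.97 with inhibitor in MV4-11. In MOLM-13 it read 9.05, 8.62 and 8.39 and then 9.34, 8.82 and 9.04, which overlap, and the difference was 4.22 ± 0.30 (limma adjusted p 1.28e-09). TNF passed the level rule in MV4-11 through the vehicle group alone and so had to change there. CCL5, a chemokine for T cells and monocytes, fell by 2.68 in MV4-11 and 0.56 in MOLM-13. IL1RN, the interleukin 1 receptor antagonist, rose by 1.26 in MOLM-13 and fell by 0.73 in MV4-11. IL18, a cytokine of the inflammasome pathway, was the reverse, with a fall of 0.91 in MOLM-13 and a rise of 1.99 in MV4-11.

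The ERK response genes fell in MV4-11 in 11 of 12 kept members (32.1% of kept genes), with a median of −0.81. In MOLM-13 5 fell, near the 40.9% of all kept genes, with a median of −0.17. Of their differences 6 were higher (19.5% of kept genes) and 1 lower (33.5%), with a median of 0.60 (7 and 0 with a common median). In all 58.3% were called, near the 53% of all kept genes. FOS, an AP-1 subunit, fell by 2.95 in MV4-11, from 8.56, 7.97 and 7.82 to 6.23, 5.41 and 3.84, with an effect of 0.55, not called, in MOLM-13. DUSP6, a phosphatase that ERK induces to limit itself, rose by 1.44 in MOLM-13 and fell by 0.52 in MV4-11, a difference of 1.96 ± 0.14. DUSP5, its nuclear relative, fell by 2.54 in MV4-11 and 0.63 in MOLM-13. FOS and DUSP5 passed the level rule in MV4-11 through the vehicle group alone and so had to change there. EGR1, an immediate early transcription factor, fell in both lines, by 4.65 in MOLM-13 (9.99, 9.52 and 9.08 to 5.73, 4.46 and 4.46) and by 4.82 in MV4-11. Its difference of 0.17 ± 0.65 has too wide an error to give a direction.

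NF-κB and interferon genes did not follow 1 direction. Of 10 kept NF-κB targets 3 were higher and 2 lower (50% called, against 53% of kept genes), with a median of −0.08. IER3, an early response gene, rose by 1.00 in MOLM-13 and fell by 1.79 in MV4-11, and TNFAIP3, the A20 feedback enzyme, fell by 1.32 in MV4-11 with an effect of −0.28 in MOLM-13. Lower in MOLM-13 was NFKB1, with a fall of 1.11 there and an effect of −0.27, not called, in MV4-11. SOD2 was lower too, with an effect of −0.06, not called, in MOLM-13 and a rise of 0.87 in MV4-11. Of 11 kept interferon-stimulated genes 1 was higher and 3 lower (36.4% called, median −0.39). CMPK2, a mitochondrial nucleotide kinase, fell by 0.60 in MOLM-13 and rose by 0.74 in MV4-11, where the vehicle arrays spread widely (9.94, 9.07 and 8.78). MX2, an antiviral GTPase, rose by 1.90 and 0.75. Its difference of 1.15 was 0.72 without vehicle MV4-11 replicate 1, the highest of 3 spread vehicle arrays (7.07, 6.01 and 5.56).

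The most positive differences came from genes that rose mainly in MOLM-13 or fell mainly in MV4-11. Some of them passed the level rule in a line through 1 group alone and so had to change there. These were NAV3, SLPI, C3 and ABCA1 through a treated group, and TNF, FOS and ITGB2-AS1 through vehicle MV4-11. NAV3, a microtubule-binding protein, had the highest value, 6.07 ± 0.12. It read 2.19, 2.41 and 2.41 in vehicle MOLM-13, at or next to the lowest value of the arrays (2.19), and 8.02, 8.41 and 8.30 with inhibitor. In MV4-11 it was high throughout, at 9.76, 9.82 and 9.72 and then 9.58, 9.58 and 9.65. The size of such a difference depends on that lowest value, and with a pseudocount of 32 it was 3.33. FGR, a Src family kinase of myeloid cells, rose by 4.02 in MOLM-13 (6.56, 6.34 and 6.73 to 10.43, 10.67 and 10.57) and fell by 0.55 in MV4-11. SLPI, a secreted protease inhibitor, and C3, the central complement protein, rose in both lines but further in MOLM-13, by 5.57 against 1.30 and by 4.00 against 0.86. In MV4-11 the C3 arrays overlapped. CDC42EP3, a CDC42 effector of the cytoskeleton, rose by 0.92 in MOLM-13 and fell by 2.20 in MV4-11. FCGR1BP, a copy of the high-affinity IgG receptor gene whose probes may also read its near-identical relatives, fell by 2.91 in MV4-11 with an effect of 0.26 in MOLM-13.

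The most negative differences included genes that fell steeply in MOLM-13. Here too some genes passed the level rule in a line through 1 group alone. HMX2 did so through vehicle MOLM-13, and TSPOAP1, CD59, PDGFC and H2AC6 through treated MV4-11. BMPR2 did so in both lines, through vehicle MOLM-13 and treated MV4-11, as did TMEM255A, described below. ANXA2R and AXL, also described below, did so through treated MV4-11 and vehicle MOLM-13. HMX2, a homeobox transcription factor, read 9.84, 10.05 and 9.81 with vehicle and 5.52, 4.84 and 4.99 with inhibitor in MOLM-13. In MV4-11 it stayed at a high level and the arrays overlapped (11.56, 11.47 and 11.59, then 11.65, 11.64 and 11.47), and the difference was −4.84 ± 0.16 (limma adjusted p 7.85e-15). ENPP2, autotaxin, fell by 3.43 in MOLM-13 (12.96, 13.07 and 12.89 to 9.73, 9.35 and 9.57) and rose by 0.38 in MV4-11. Others rose steeply in MV4-11. TSPOAP1, a binding partner of the mitochondrial TSPO protein, rose by 5.61 there (3.04, 2.68 and 2.48 to 8.49, 8.32 and 8.23) and by 0.88 in MOLM-13, where it already stood at 10.91 to 11.03. CD59, an inhibitor of complement lysis, rose by 4.03 in MV4-11 with an effect of 0.03 in MOLM-13. PDGFC, a growth factor, SAMSN1, an adaptor that restrains B cell signalling, and BMPR2, a BMP receptor, rose by 3.27, 2.88 and 2.61 in MV4-11 and fell by 0.53, 0.76 and 0.92 in MOLM-13. H2AC6, a histone H2A gene with near-identical copies, rose by 4.50 in MV4-11 with an effect of 0.65, not called, in MOLM-13.

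Opposite responses were fewer. The 762 genes called in both lines in opposite directions are 8.39% of kept genes, 242 of them up in MOLM-13 and 520 down. The count fell to 426 with the 3' to 5' covariate, and with a common median it was 799, of which 454 were up in MOLM-13 and 587 were among the first 762. At 2-fold or more in both lines, 17 genes remained.

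ANXA2R, annexin A2 receptor, fell in MOLM-13 from 11.13, 11.33 and 11.30 to 7.22, 6.96 and 7.03. In MV4-11 it rose from 4.98, 5.04 and 3.94 to 6.51, 5.97 and 6.88, so that the lines, far apart with vehicle, stood close with inhibitor. IGLL1, the surrogate light chain of pre-B cells, fell by 3.67 in MOLM-13 (9.82, 9.92 and 9.77 to 6.36, 6.04 and 6.09) and rose by 1.04 in MV4-11 (8.64, 8.99 and 8.98 to 10.18, 10.08 and 9.47). AXL, a receptor tyrosine kinase, fell by 2.60 in MOLM-13 and rose by 1.23 in MV4-11, where vehicle arrays ran from 5.46 to 7.35. QPRT, an enzyme of NAD synthesis, fell by 1.25 and rose by 1.54, and NIPSNAP3B, a mitochondrial protein, fell by 1.35 and rose by 1.34. ARHGAP23 fell by 1.33 and rose by 1.25 on its brightest probe set, though its 2 probe sets differ in sign. TMEM255A, a membrane protein, fell by 3.27 and rose by 2.18, with highest group means of 6.20 in MOLM-13 and 6.18 in MV4-11, just over the level. All of these genes but IGLL1 passed the level rule in a line through 1 group alone and so had to change there. ANXA2R did so through treated MV4-11, and AXL, QPRT and ARHGAP23 through vehicle MOLM-13. NIPSNAP3B and TMEM255A did so in both lines, through vehicle MOLM-13 and treated MV4-11.

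In the other direction, ALOX12, the platelet-type 12-lipoxygenase, rose by 1.44 in MOLM-13 (9.78, 9.95 and 9.94 to 11.35, 11.25 and 11.37). It fell by 3.03 in MV4-11, from 10.69, 10.71 and 10.66 to 7.76, 7.54 and 7.67, and the difference was 4.47 ± 0.09 (limma adjusted p 7.45e-18). ITGB2-AS1, an antisense RNA at the ITGB2 locus, rose by 4.35 in MOLM-13 (6.28, 6.50 and 6.50 to 10.59, 11.04 and 10.69) and fell by 1.26 in MV4-11 (7.91, 7.19 and 6.39 to 5.78, 5.71 and 6.21). ITGB2 itself, the CD18 chain of the leukocyte integrins, moved the same 2 ways. It rose by 0.54 in MOLM-13 and fell by 1.63 in MV4-11, a difference of 2.18 ± 0.15. In the BCL2 family, BIK, a pro-apoptotic BH3 protein, fell by 1.03 in MOLM-13 (11.49, 11.63 and 11.56 to 10.61, 10.34 and 10.64) and rose by 1.07 in MV4-11 (10.52, 10.57 and 10.67 to 11.75, 11.72 and 11.50).

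A further set responded to nearly the same degree in both lines. For 1596 genes called in the same direction in both lines, the 95% interval of the difference lay within 0.5 on either side of 0, 696 rising and 900 falling, and 55 of them changed at least 2-fold in both. With the 3' to 5' covariate 1009 met this rule, with a common median 1599 and without treated MV4-11 replicate 3 1584. SORL1, a sorting receptor of the endosome, went from 7.47, 7.36 and 7.26 to 10.86, 10.77 and 10.89 in MOLM-13 and from 7.40, 7.44 and 7.42 to 10.96, 11.06 and 10.77 in MV4-11. Its difference was −0.03 ± 0.15, but only 1 of its 3 probe sets carried that sign, and over their mean the interval reached 1.04. DEF8, a lysosome positioning protein, rose by 1.60 in both lines, with a difference of 0.00 ± 0.13. ST3GAL6, a sialyltransferase, rose by 2.57 and 2.63, and FGFR1, a fibroblast growth factor receptor, by 1.65 and 1.48. These values are from the brightest probe sets, and 1 of 2 ST3GAL6 and 2 of 5 FGFR1 probe sets carried the sign of the difference. ST3GAL6 passed the level rule in MV4-11 through the treated group alone. BTG3, an antiproliferative factor, fell by 1.59 in MOLM-13 and 1.41 in MV4-11.

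**Figure D5:**
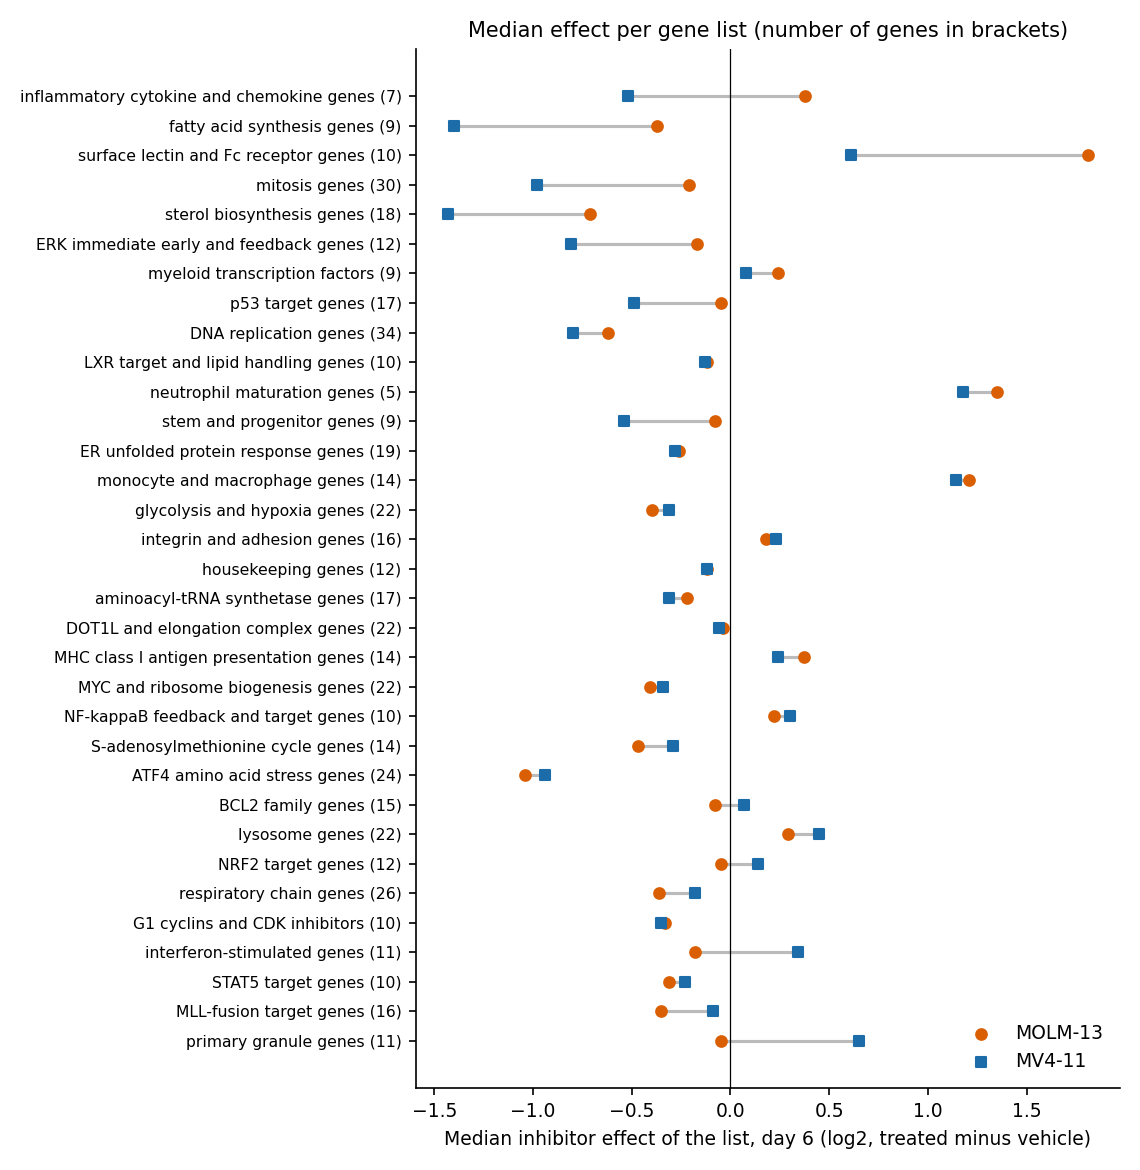
Median inhibitor effect (log2, treated minus vehicle, day 6) of the kept genes of each list with at least 5 kept, in MOLM-13 (circles) and MV4-11 (squares), ordered by the median difference, with the number of kept genes in brackets. Mitosis, sterol and fatty acid genes fall further in MV4-11, and primary granule and MLL-fusion target genes lie lower in MOLM-13.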

How the data were processed

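RNA of 12 day 6 cultures (24 in the series) was read on Affymetrix arrays, each with 54675 probe sets. The deposited intensity values are linear (4.551 to 71593) and were made by the authors with GCRMA, per the submitters' processing notes. GCRMA corrects background by probe sequence, quantile normalizes and summarizes probe sets, and its low end is a shared lowest value, so changes near it depend on that step. No version or build is given in the sources used here. The log2 was taken with a pseudocount of 0. Of the probe sets 41097 had 1 gene symbol, 1801 several and 11777 none. Those with 1 symbol and a log2 of at least 4 in at least 3 arrays were used, with the brightest probe set standing for its gene (10971 genes). Group means over all 24 arrays were fitted by lmFit, contrasted and moderated by eBayes (R 4.3.3, limma version 3.58.1, 16 residual degrees of freedom), and p-values were adjusted by Benjamini-Hochberg over the 10971 genes. A call is an adjusted p under 0.05. An exact test of 3 against 3 arrays cannot go below 0.1, so single genes were tested only in this model. The number of arrays limits precision. The steps were tested on simulated data.

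The members, the 39 gene lists and the tests were chosen with earlier results of these data known. Named genes are the 12 most positive and 12 most negative called differences, the 8 largest opposite and 8 largest narrow-interval genes, up to 4 kept genes per list by adjusted p, and a fixed panel, with examples printed. Alternatives changed the filter, level, probe set choice, pseudocount, scaling, variance prior, vehicle arrays, replicate block and covariate, or left out an array. Array weights, list, shared-direction and narrow-interval counts under the alternatives and the promoter element were added after the data were seen. Promoters came from RefSeq (GRCh38.p14), matched by symbol. Python 3.11.15 with pandas 2.3.3, numpy 2.4.6 and matplotlib 3.10.9 did the rest.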

Additional observations from a re-analysis of the deposited data

Results flagged for a closer look

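The inhibitor effect was called in opposite directions in the 2 lines, at 2-fold or more in both, for 17 genes, each with a called difference by the interaction test (limma, Benjamini-Hochberg). Other genes in the report carry the same test without meeting that size. Lower in MOLM-13 were ANXA2R (difference −5.98), TMEM255A (−5.45), IGLL1 (−4.71), AXL (−3.83), QPRT (−2.80), NIPSNAP3B (−2.70), ARHGAP23 (−2.57), CST7 (−2.55), ACYP2 (−2.53), DACT3 (−2.22) and BIK (−2.10). Higher in MOLM-13 were DLX1 (2.72), IL31RA (2.74), IER3 (2.80), PTPRE (2.89), ALOX12 (4.47) and ITGB2-AS1 (5.61).

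Some of these genes have not been described above. CST7, cystatin F of leukocyte granules, fell by 1.42 in MOLM-13 from a mean of 11.11 and rose by 1.13 in MV4-11 from 7.52. ACYP2, an acylphosphatase, fell by 1.20 in MOLM-13 and rose by 1.33 in MV4-11, and DACT3, an inhibitor of Wnt signalling, fell by 1.08 and rose by 1.15. DLX1, a homeobox factor, rose by 1.55 in MOLM-13 (8.45 to 9.99) and fell by 1.18 in MV4-11 (10.44 to 9.26). PTPRE, a receptor-type tyrosine phosphatase, rose by 1.82 and fell by 1.07 with an SE of 0.05 in each line. IL31RA, a cytokine receptor chain, rose by 1.05 and fell by 1.69. It passed the level rule in MV4-11 through the vehicle group alone, as did IER3. ACYP2 passed in MOLM-13 through the vehicle group alone. With the 3' to 5' covariate the count of such genes was 16, with a common median 18, without treated MV4-11 replicate 3 it was 23, and with all 4 groups at the level 7. It was 7 with a pseudocount of 32, 11 at a level of 7 and 31 with every probe set tested.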

How the results depend on the processing

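The counts of called differences kept their size within 1.5 times under most alternatives. Exceptions were the higher calls with a common median (2699), opposite genes with the 3' to 5' covariate (426), and every probe set tested on its own, which gave 7792 differences (3031 higher, 4761 lower), 1857 of 2-fold or more and 1214 opposite. Leaving out 1 array gave 4440 to 5260 differences (1613 to 1996 higher, 2798 to 3264 lower), 832 to 1016 of 2-fold or more and 677 to 907 opposite. Replicate numbers were not paired by the data (same-number r from −0.23 to 0.079), and the replicate block gave 4431 differences and 676 opposite genes.

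Of 170 named genes, 163 had a called difference and 146 of them neither lost the call nor changed sign under any alternative that still held the gene. Alternatives that changed only the level used the main fit, so no call or sign could change under them. A gene that dropped out at a stricter level was not counted as lost. Signs turned over the mean of probe sets for CYBA (0.01), S100A8 (0.87), EPRS1 (0.56), BCL2 (0.00), PGK1 (−0.32) and EGR1 (−0.09), with a common median for RAC2 (0.00), and with the covariate for DOT1L (−0.09) and ITGAM (−0.02). Leaving out 1 array moved ITGAM from −0.18 to 0.42 and EGR1 from −0.25 to 0.69. The mean of probe sets also moved, with the call kept, JMJD1C to −0.51, IL1RN to 0.82, LILRA2 to 0.83, LILRB2 to 1.03, SIGLEC7 to 1.52, SREBF1 to 0.97, LSS to 0.86, PDGFC to −2.45, ARHGAP23 to −1.11, TNFRSF10B to 2.22, NUSAP1 to 1.33, LMO2 to 1.25, CD74 to −1.70 and TAP2 to 0.94. The covariate moved TYROBP to −0.48 and LEO1 to −0.49, and a pseudocount of 32 moved TSPOAP1 to −2.34, CD59 to −2.27, TMEM255A to −2.54, AXL to −2.42, BCL6 to −0.73 and DUSP5 to 1.13. The causes were not tested.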

Other observations

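Stress and energy metabolism lists had medians of the difference between −0.24 and 0.14, near the −0.10 of all kept genes, of which 53% had a called difference. Of all kept genes 19.5% were higher and 33.5% lower, and 29.7% and 23.5% with a common median. Most amino acid stress genes of the ATF4 programme fell in both lines. In MOLM-13 19 of 24 kept fell (40.9% of kept genes did), and in MV4-11 21 (32.1%). Their differences were higher for 5 and lower for 6 (median −0.12). ASNS, asparagine synthetase, fell by 1.52 in MOLM-13 with an effect of −0.28 in MV4-11, while ATF5, a related transcription factor, fell by 1.90 in MV4-11 with an effect of −0.05 in MOLM-13. VLDLR, a lipoprotein receptor, fell by 2.26 in MOLM-13 and rose by 0.62 in MV4-11. Of 12 kept NRF2 targets 6 were lower in MOLM-13 and 0 higher (median −0.22, and 5 and 0 with a common median). NQO1, a quinone reductase, fell by 0.46 in MOLM-13 and rose by 0.93 in MV4-11, and its difference of −1.39 was −0.90 with the 3' to 5' covariate. Of 26 respiratory chain genes 13 were lower and 3 higher (median −0.24), but 10 and 7 with a common median. SDHD, a subunit of complex II, fell by 1.33 in MOLM-13 with an effect of 0.02 in MV4-11. The split also turned with a common median for ribosome biogenesis genes (3 higher and 7 lower, then 10 and 3), aminoacyl-tRNA synthetases (1 and 4, then 6 and 4), and it widened for glycolysis genes (5 and 4, then 12 and 3). Of 14 genes of the S-adenosylmethionine cycle, which feeds methyltransferases such as DOT1L, 0 were higher and 5 lower, and 1 and 3 with a common median. AHCY, which clears the product inhibitor of methylation, fell by 0.84 in MOLM-13 with an effect of 0.05 in MV4-11, a difference of −0.89 that was −0.57 with the covariate. Unfolded protein response genes split 7 and 5 (10 and 2 with a common median), with MANF, a secreted chaperone, up by 0.31 in MOLM-13 and down by 0.56 in MV4-11. The 12 housekeeping genes split 4 and 4.

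Lysosome and adhesion lists had called differences in 59.1% and 56.2% of kept members, near the 53% of all kept genes (19.5% higher and 33.5% lower). Of 22 lysosome genes 13 rose in MOLM-13 and 15 in MV4-11, against 29.2% and 33.5% of kept genes. Their differences were higher for 4 and lower for 9 (6 and 7 with a common median). PSAP, the saposin precursor, rose by 2.05 in MV4-11 and 1.14 in MOLM-13 (difference −0.91, and −1.59 over the mean of its probe sets), and NPC1, a cholesterol transporter of the lysosome, rose by 0.90 in MV4-11 with an effect of −0.11 in MOLM-13. Adhesion genes split 4 and 5. ITGB1, the beta-1 integrin chain, fell by 0.91 in MOLM-13 with an effect of 0.12 in MV4-11 (difference −1.03, and −2.10 over the mean of its probe sets), and ICAM3, an adhesion receptor of leukocytes, rose by 1.79 and 0.98. NCF1, a subunit of the phagocyte oxidase whose probes may also read its near-identical pseudogenes, rose by 0.63 in MOLM-13 and fell by 1.99 in MV4-11; the other 3 kept subunits had differences of −0.27 to 0.21. Among 9 stem and progenitor genes 2 were higher and 2 lower. CD38 fell by 2.39 in MV4-11, from 7.06, 7.45 and 7.30 to 5.12, 4.81 and 4.69, with an effect of 0.13 in MOLM-13, and MSI2, an RNA-binding protein of stem cells, rose by 1.28 in MV4-11 with an effect of −0.08 in MOLM-13. F13A1, a coagulation factor subunit of megakaryocytes and monocytes, rose by 5.10 in MV4-11 (5.89, 6.36 and 6.03 to 11.35, 11.32 and 10.91) and by 1.91 in MOLM-13. NFE2, a megakaryocyte and erythroid transcription factor, rose by 1.81 and 0.54. In the BCL2 family 4 were higher and 6 lower (5 and 5 with a common median), and BAX, an executioner of apoptosis, fell by 0.55 in MV4-11 with an effect of 0.12 in MOLM-13.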
